A study of Mus musculus with 12 samples.

Results

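The genes described here are 33 members of the ATF4 program of amino acid and one-carbon metabolism, which were taken from the gene table by their symbols: the transcription factor gene Atf4, 16 enzymes that make amino acids and one-carbon units, 7 amino acid transporters, the tRNA synthetase gene Sars1, 6 stress regulators, the secreted factor gene Fgf21, and the receptor gene Vldlr. All 33 were among the 35303 symbols of the table. The 32 members other than Fgf21 were among the 17676 symbols that reached 2 counts over all libraries and were tested. Fgf21 had 0 counts in all 12 libraries.

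Mouse myeloid-derived suppressor cells (MDSCs) in 3 groups, with 4 libraries each, were compared by bulk RNA sequencing. MDSCs were grown from the bone marrow of wild-type female C57BL/6 mice aged 6 to 10 weeks with IL-6 and GM-CSF (40 ng/ml each), harvested on day 3, and selected as CD11b+Gr1+ cells. The first group, MDSC, carried no particles. In MDSC-NP-Blk, blank poly(lactic-co-glycolic acid) (PLGA) nanoparticles (NPs) were clicked onto azido groups that a modified sugar (50 µM) had placed on the cell surface. The methods name that sugar Ac4GalNAz, and the results text names it Ac4ManNAz. In CITED, the same kind of particle carried rapamycin, an inhibitor of the growth kinase complex mTORC1. Whether the MDSC group received the azido sugar is not stated. All 3 groups then spent 24 hours in IL-6 (40 ng/ml), so the comparisons among them share that cytokine. MDSC-NP-Blk against MDSC measured the particle with its conjugation, CITED against MDSC-NP-Blk measured the rapamycin load, and CITED against MDSC measured both. The study calls the 4 libraries of a group independent biological replicates, without saying whether each came from its own mouse or culture. The culture held monocytic and polymorphonuclear cells together, and in bulk RNA fewer cells of a type and less RNA per cell cannot be told apart.

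ATF4 is a basic leucine zipper transcription factor that pairs with C/EBP proteins. Its mRNA is translated when the initiation factor eIF2 is phosphorylated by stress-sensing kinases, a pathway called the integrated stress response, and mTORC1 also promotes its translation. ATF4 turns on genes that synthesize serine, glycine, proline and asparagine, that feed one-carbon units carried by folate into nucleotide synthesis, and that import amino acids, and under sustained stress it turns on regulators such as CHOP (Ddit3). Because ATF4 is controlled largely at the level of translation, the amount of Atf4 mRNA need not follow the activity of the protein, which was not measured here.

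Each library held between 20604809 and 37855478 counts, of which MDSC-NP-Blk replicate 2 held the most, and a floor of 3 counts equals between 7.92e-06% and 1.46e-05% of a library, for counting error only. Normalized counts are counts scaled to the mean library with TMM factors, which ran from 1.12 to 1.15 for MDSC, from 0.938 to 0.947 for MDSC-NP-Blk, and from 0.921 to 0.944 for CITED. When libraries were scaled by their totals alone, the median of expressed genes shifted by -0.27 (log2) in CITED against MDSC, by -0.26 in MDSC-NP-Blk against MDSC, and by -0.01 in CITED against MDSC-NP-Blk. Longer transcripts were relatively higher in the MDSC libraries (Spearman's rho across 10519 genes 0.22 to 0.35) and lower in the CITED libraries (-0.34 to -0.19), whereas the MDSC-NP-Blk libraries ranged from -0.42 to 0.092. Within MDSC-NP-Blk, replicates 1 and 4 stood apart from replicates 2 and 3 for 22 of 29 members, a split that was not counted over all genes. Calls that change without either pair are given below. The labels give the CNS as the tissue, although the cells came from marrow cultures. The neuronal genes Snap25, Syt1, and Rbfox3, the astrocyte genes Gfap, Aqp4, and Slc1a3, and the oligodendrocyte gene Mog were at or under 3 counts in all 12 libraries, and 9 myeloid markers summed to between 76729 and 107634 TPM (counts per transcript length, scaled to a fixed sum).

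ATF4 binds with a C/EBP partner to a C/EBP-ATF response element (CARE), which was searched as TGATGNAA on both strands, from 250 bases before to 50 bases after the transcript start. With starts from GENCODE, 7 of the 33 members had a match (21.2%), against 389 of 15043 protein-coding genes (2.59%). With RefSeq promoters, which were available for 28 members, 8 members had a match (28.6%), against 338 of 11617 genes (2.91%). The matches are shown because the element is the one that ATF4 binds, and a match is not evidence of binding in these cells. The members were listed as genes of the ATF4 program, so their higher share of matches is not an independent result. The sequences are from GRCm39, in the direction of the gene, with the match in capitals, as its reverse complement where it lies on the other strand. The RefSeq promoters (build GRCm38.p6) of Asns, Trib3, and Slc1a4 were placed on GRCm39 by matching the whole promoter.
Asns, chr6:7693214-7693243, minus strand: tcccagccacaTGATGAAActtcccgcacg
Pycr1, chr11:120534659-120534688, minus strand: tgccctgtgtaTGATGCAAtgcacaaggct
Gpt2, chr8:86218828-86218857, plus strand: tatggctgggaTGATGAAActcaaggcgaa
Got1, chr19:43513128-43513157, minus strand: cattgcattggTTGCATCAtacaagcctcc
Slc1a4, chr11:20282699-20282728, minus strand: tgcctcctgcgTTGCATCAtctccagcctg
Chac1, chr2:119181519-119181548, plus strand: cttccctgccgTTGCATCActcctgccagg
Trib3, chr2:152185948-152185977, minus strand: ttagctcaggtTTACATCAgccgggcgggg
Ddit3, chr10:127126350-127126379, plus strand: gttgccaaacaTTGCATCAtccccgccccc
Vldlr, chr19:27194209-27194238, plus strand: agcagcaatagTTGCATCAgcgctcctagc
Fgf21, chr7:45265035-45265064, minus strand: agacccccccaTTGCATCAtccgtccaggc
The promoters that held a match belonged to genes that moved in both directions: in MDSC-NP-Blk against MDSC, Asns, Pycr1, Gpt2, Got1, and Slc1a4 were lower, whereas Trib3 and Ddit3 were higher. A second motif, the E-box CACGTG, was found in 6 of 33 members (18.2%), Aldh1l2, Aldh18a1, Cth, Cbs, Slc7a5, and Fgf21, against 9.34% of genes.

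Of the 16 enzymes of the program, 14 were lower in each particle group than in MDSC, whereas 5 of the 6 stress regulators were higher in MDSC-NP-Blk and 3 were higher in CITED. In MDSC-NP-Blk against MDSC, 19 of the 32 members tested were lower (59.4%) and 7 were higher (21.9%), at an adjusted p below 0.05 in edgeR's quasi-likelihood test, against 18.6% and 19.9% of all genes tested. The share of members higher was near that of all genes. A decrease of at least 1 on the log2 scale was measured in 10 members, against 2.86% of all genes, and an increase of that size in 0 members, against 1.88%. The median member changed by -0.53, and the median gene by -0.03. In CITED against MDSC, 20 members were lower (62.5%) and 5 were higher (15.6%), against 22.2% of all genes in each direction. Of these, 14 members fell by at least 1 on the log2 scale and 2 rose by as much, against 6.7% and 3.28% of all genes, and the median member changed by -1.03, with Cth at its bound as well. With total counts as the only scaling, the counts were 23 lower and 5 higher for the blank particle, against 34.5% and 9.4% of genes, and 26 lower and 4 higher for CITED against MDSC, against 35.8% and 12.4%.

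Fewer members, and fewer of all genes, passed the test between CITED and MDSC-NP-Blk than between MDSC-NP-Blk and MDSC. In CITED against MDSC-NP-Blk, 8 members were lower (25%) and 4 were higher (12.5%), against 11.4% and 10.5% of all genes, and 20 did not pass the test. The share of members higher was near that of all genes. The 4 that fell by at least 1 were Phgdh, Mthfd1l, Aldh1l2, and Vldlr, against 2% of all genes, and 0 rose by as much, against 0.651%. The median member changed by -0.12. The blank-particle group enters both steps, once as the treated group and once as the control, so a shift of its libraries moves the 2 steps in opposite directions, and the values of both are given side by side for each gene. The same sharing holds for MDSC in the comparisons with MDSC-NP-Blk and with CITED.

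**Figure D1:**
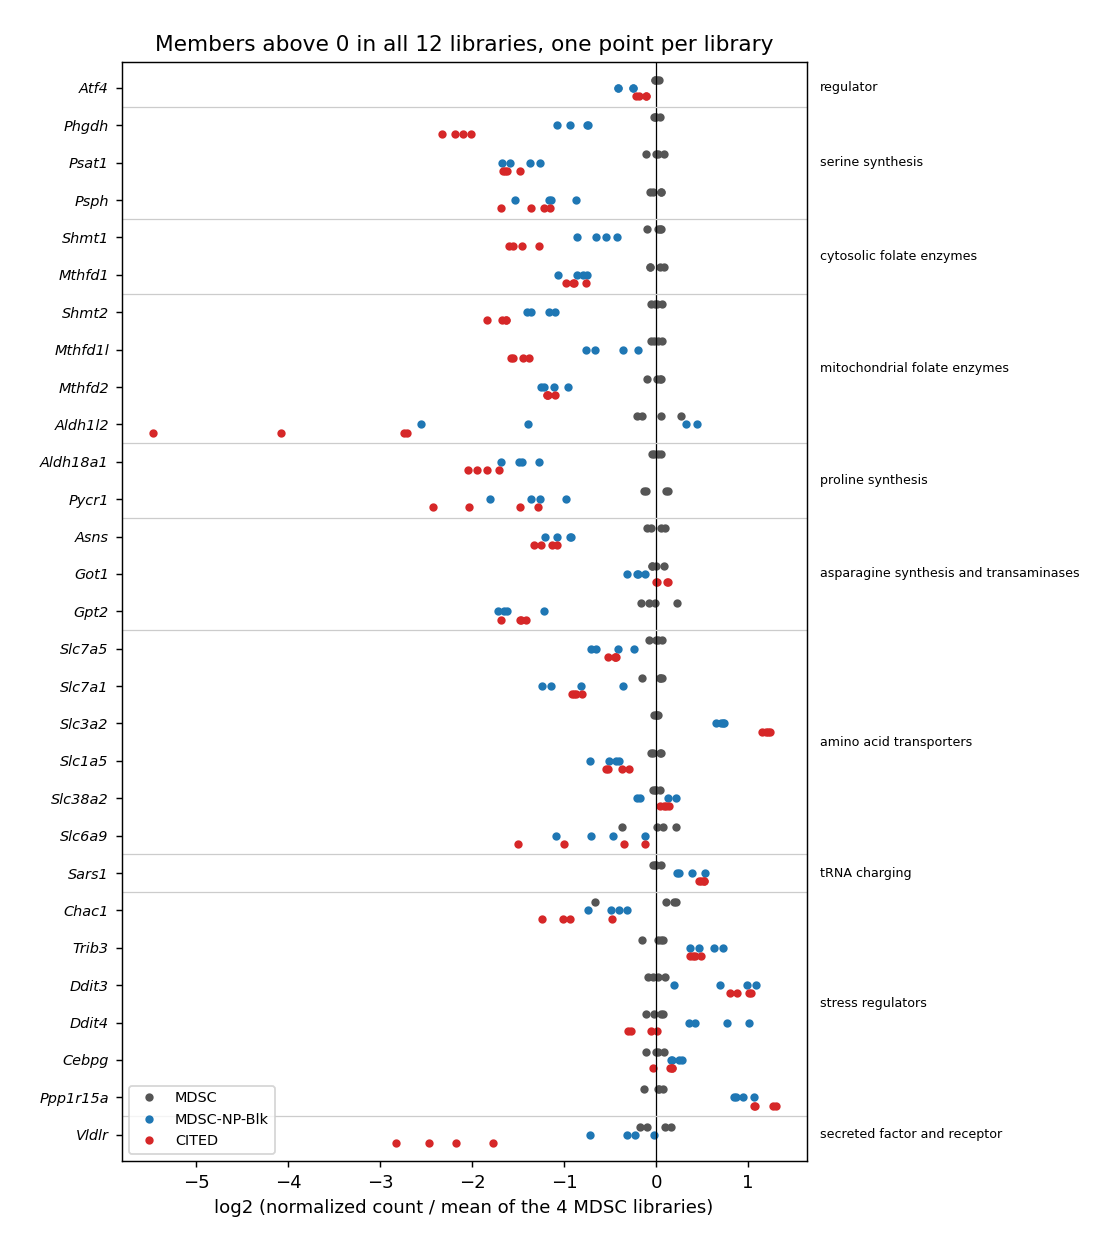
Log2 of the normalized count over the mean of the 4 MDSC libraries (x axis) for the members above 0 counts in all 12 libraries (y axis, grouped by role), with 1 point per library and the MDSC mean at 0. The points of both particle groups lie to the left for serine, folate, and proline enzymes and to the right for Slc3a2, Trib3, Ddit3, and Ppp1r15a, and the 4 MDSC-NP-Blk points of Aldh1l2 lie apart, from 8.3 to 66.7 normalized counts.

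Among the 16 enzymes, 14 were lower in MDSC-NP-Blk than in MDSC (87.5%) and 0 were higher, with a median log2 fold change of -1.08, and in CITED against MDSC the counts were again 14 and 0, with a median of -1.5. In CITED against MDSC-NP-Blk, 6 enzymes were lower and 1 was higher. The enzymes that did not pass were Aldh1l2 and Cbs for the blank particle and Got1 and Cbs for CITED against MDSC. Of the 7 transporters, 4 were lower and 1 was higher in MDSC-NP-Blk than in MDSC, 3 were lower and 1 was higher in CITED than in MDSC, and 0 were lower and 1 was higher in CITED than in MDSC-NP-Blk. Of the 6 stress regulators, 5 were higher and 0 were lower with the blank particle, among them Cebpg, whose sign turned with total counts only. In CITED, 3 were higher and 1 was lower than in MDSC, and 1 was higher and 1 was lower than in MDSC-NP-Blk. Of all genes, 18.6% were lower and 19.9% higher with the blank particle, and 22.2% each way in CITED against MDSC. With the load, 11.4% were lower and 10.5% higher. The 1 transporter higher (14.3%) and the 1 stress regulator each way with the load (16.7%) are near these shares. The 1 transporter higher than MDSC in each particle group (14.3%) is under the share of all genes. So is the 1 stress regulator lower in CITED than in MDSC (16.7%).

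Atf4 itself (chr15:80139372-80141745, GRCm39, plus strand) was lower in both particle groups than in MDSC. Its normalized counts were 3518, 3519, 3576, and 3624 for MDSC, 2999, 2663, 2660, and 2994 for MDSC-NP-Blk, and 3292, 3056, 3135, and 3303 for CITED. The 3 groups did not overlap, and MDSC was the highest and MDSC-NP-Blk the lowest. The log2 fold change was -0.33 ± 0.05 (SE; edgeR, adjusted p = 3.8e-06) for MDSC-NP-Blk against MDSC, -0.15 ± 0.05 (adjusted p = 0.017) for CITED against MDSC, and 0.18 ± 0.05 (adjusted p = 0.014) for CITED against MDSC-NP-Blk. With total counts only, the first 2 were -0.60 (adjusted p = 3.3e-11) and -0.43 (adjusted p = 2e-08). Either of the latter 2 calls was lost when certain single libraries were left out: without CITED replicate 2 the change against MDSC was -0.13 (adjusted p = 0.062), and against MDSC-NP-Blk it was 0.15 without MDSC-NP-Blk replicate 2 (adjusted p = 0.072) or replicate 3 (adjusted p = 0.05) and 0.16 without CITED replicate 4 (adjusted p = 0.056). Without MDSC-NP-Blk replicates 2 and 3 together it was 0.09 (adjusted p = 0.3).

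The pathway that makes serine from a glycolytic intermediate has 3 steps, and the 3 enzymes did not move alike. Phgdh (chr3:98220484-98255047, minus strand), the entry enzyme, had 2487, 2549, 2439, and 2466 normalized counts in the MDSC libraries, 1295, 1473, 1485, and 1176 in MDSC-NP-Blk, and 495, 615, 579, and 545 in the CITED libraries. It fell at both steps, and no library of a group reached the range of another. The log2 fold change was -0.87 ± 0.07 (adjusted p = 2.8e-12) with the blank particle and a further -1.28 ± 0.08 (adjusted p = 4.2e-15) with the rapamycin load, which left CITED at 22.5% of the MDSC mean. Of the 31-base words of the Phgdh transcript, 73.5% also occur in transcripts of other genes, and its 3 closest copies, Gm7901, Gm9347, and Gm8341, summed to at most 6 counts in a library, against at least 395 for Phgdh.

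Psat1 (chr19:15882039-15924701, minus strand), the aminotransferase of the second step, had 1858, 1749, 1782, and 1617 normalized counts in MDSC. It had 584, 731, 679, and 548 in MDSC-NP-Blk and 630, 553, 562, and 568 in CITED, so both particle groups lay far under MDSC and overlapped each other. The fall with the blank particle was -1.46 ± 0.08 (adjusted p = 2.2e-16), and CITED differed from MDSC-NP-Blk by -0.14 ± 0.08 (adjusted p = 0.25), or by -0.29 without MDSC-NP-Blk replicates 1 and 4 (adjusted p = 0.006) and 0.03 without replicates 2 and 3 (adjusted p = 0.91). Psph (chr5:129841925-129864513, minus strand), the phosphatase that releases serine, had 377, 378, 348, and 356 for MDSC, 199, 165, 126, and 163 for MDSC-NP-Blk, and 164, 157, 113, and 142 for CITED. It fell by 1.17 ± 0.13 on the log2 scale with the blank particle (adjusted p = 2.8e-09), and CITED differed from MDSC-NP-Blk by -0.18 ± 0.14 (adjusted p = 0.41). With all libraries, Phgdh passed the test between CITED and MDSC-NP-Blk, whereas Psat1 and Psph did not.

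Folate enzymes of the cytosol move one-carbon units between serine, glycine, and formate. Shmt1 (chr11:60661185-60708167, minus strand), which splits serine into glycine and a one-carbon unit, had 427, 393, 433, and 437 normalized counts in the MDSC libraries, 268, 313, 290, and 232 in MDSC-NP-Blk, and 143, 154, 174, and 139 in the CITED libraries. The groups were separate and ordered, with changes of -0.61 ± 0.11 (adjusted p = 1.5e-05) for the blank particle and -0.86 ± 0.12 (adjusted p = 4.7e-07) for the load. Mthfd1 (chr12:76301984-76366588, plus strand), which interconverts the folate-bound units, fell from a mean of 788 ± 43.8 (SD, n = 4) in MDSC to 434 ± 40.4 with the blank particle and was 426 ± 27.4 in CITED. Its change was -0.86 ± 0.08 (adjusted p = 2.3e-10) for the blank particle and -0.03 ± 0.09 (adjusted p = 0.9) for the load.

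The mitochondrial branch, which supplies most formate in growing cells, divided in the same manner. Shmt2 (chr10:127352266-127358323, minus strand), the mitochondrial counterpart of Shmt1, had 1004, 973, 1056, and 1018 normalized counts for MDSC, 394, 453, 473, and 384 for MDSC-NP-Blk, and 327, 282, 326, and 316 for CITED. It fell by 1.24 ± 0.08 on the log2 scale with the blank particle (adjusted p = 1.9e-14) and by a further 0.45 ± 0.09 with the load (adjusted p = 0.00019), and the 3 groups did not overlap. Mthfd2 (chr6:83282673-83302890, minus strand), the dehydrogenase that acts next, had 1555, 1508, 1396, and 1538 in the MDSC libraries, 644, 770, 696, and 627 in MDSC-NP-Blk, and 660, 701, 657, and 665 in the CITED libraries. Its particle groups overlapped, with -1.13 ± 0.07 (adjusted p = 1.2e-14) for the blank particle and -0.03 ± 0.08 (adjusted p = 0.83) for the load.

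Mthfd1l (chr10:3922870-4117081, plus strand), which releases formate, showed the larger step with rapamycin. It had 1729, 1595, 1680, and 1639 normalized counts for MDSC, 1291, 1048, 978, and 1447 for MDSC-NP-Blk, and 558, 610, 563, and 636 for CITED. The change was -0.48 ± 0.08 (adjusted p = 1.5e-05) for the blank particle and -1 ± 0.09 (adjusted p = 8.2e-11) for the load. Without MDSC-NP-Blk replicates 1 and 4 the steps of Mthfd1l were nearly equal, at -0.71 for the blank particle and -0.78 for the load. They were -0.29 and -1.21 without replicates 2 and 3. Aldh1l2 (chr10:83323314-83370005, minus strand), which oxidizes formyl-folate in mitochondria and yields NADPH, was expressed at a low level, with 59, 43.8, 50.7, and 42.3 normalized counts in the MDSC libraries, 61.2, 18.6, 8.3, and 66.7 in MDSC-NP-Blk, and 7.5, 7.3, 1.1, and 2.9 in the CITED libraries. All CITED libraries lay under all others, at raw counts of 1 to 6, whereas MDSC-NP-Blk replicates 1 and 4 lay above the MDSC range and replicates 2 and 3 below it. The change was -0.37 ± 0.43 (adjusted p = 0.54) for the blank particle and -3.02 ± 0.56 (adjusted p = 7.9e-05) for the load. Without MDSC-NP-Blk replicates 1 and 4 the blank particle gave -1.82 (adjusted p = 0.0048), and without replicates 2 and 3 it gave 0.37 (adjusted p = 0.51). The load gave -1.57 (adjusted p = 0.045) and -3.77 (adjusted p = 9.8e-09) after the same removals.

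Both enzymes of proline synthesis from glutamate fell with the blank particle. Aldh18a1 (chr19:40538698-40576949, minus strand), which starts the pathway, had 1021, 979, 1048, and 992 normalized counts for MDSC, 314, 419, 366, and 359 for MDSC-NP-Blk, and 261, 245, 282, and 308 for CITED. It changed by -1.46 ± 0.09 (adjusted p = 1.8e-15) with the blank particle and by -0.42 ± 0.10 (adjusted p = 0.0011) with the load, and the latter call was lost without MDSC-NP-Blk replicates 2 and 3 (-0.29, adjusted p = 0.055). Pycr1 (chr11:120526484-120539269, minus strand), the reductase that finishes it, had 129, 127, 109, and 108 in the MDSC libraries, 59.9, 33.8, 45.9, and 49.1 in MDSC-NP-Blk, and 28.8, 22, 42.2, and 48.4 in the CITED libraries. All 8 particle libraries lay under the MDSC range and the particle groups overlapped, with changes of -1.34 ± 0.24 (adjusted p = 1.7e-05) and -0.38 ± 0.26 (adjusted p = 0.34).

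Asns (chr6:7671667-7728461, minus strand), which makes asparagine and is a standard reporter of ATF4, had 856, 748, 769, and 827 normalized counts for MDSC, 379, 346, 421, and 417 for MDSC-NP-Blk, and 366, 337, 319, and 379 for CITED. It fell to 48.7% of the MDSC mean with the blank particle (-1.04 ± 0.09, adjusted p = 6.3e-12), and CITED differed from MDSC-NP-Blk by -0.15 ± 0.09 (adjusted p = 0.27). Gpt2 (chr8:86218810-86255577, plus strand), the mitochondrial alanine aminotransferase, had 252, 264, 312, and 237 in the MDSC libraries, 84.2, 86.2, 114, and 80.7 in MDSC-NP-Blk, and 82.8, 95.4, 99.9, and 95.8 in the CITED libraries. Its values had the same form, with -1.54 ± 0.15 (adjusted p = 1.1e-10) and then 0.04 ± 0.16 (adjusted p = 0.94).

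Got1 (chr19:43488188-43513674, minus strand), the cytosolic aspartate aminotransferase, stood apart from the other enzymes. It had 1081, 1191, 1117, and 1087 normalized counts for MDSC, 1031, 976, 899, and 965 for MDSC-NP-Blk, and 1226, 1218, 1118, and 1126 for CITED. MDSC-NP-Blk was under both other groups, which overlapped. The changes were -0.21 ± 0.07 (adjusted p = 0.013) for the blank particle, 0.28 ± 0.07 (adjusted p = 0.0025) for the load, and 0.07 ± 0.07 (adjusted p = 0.46) for CITED against MDSC, where the sign turned to -0.21 with total counts only (adjusted p = 0.01) and to -0.06 with the length correction. The call for the blank particle was lost without MDSC replicate 2 (-0.18, adjusted p = 0.057) or MDSC-NP-Blk replicates 2 and 3 (-0.18, adjusted p = 0.071).

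The transsulfuration enzymes, which make cysteine from homocysteine, were near the limit of detection. Cth (chr3:157599868-157630739, minus strand) had 16.5, 11.4, 18.4, and 29.2 normalized counts in MDSC, 9.4 in MDSC-NP-Blk replicate 3 and 0 in the other 3 MDSC-NP-Blk libraries, and 1.3, 2.4, 0, and 0 in CITED. It was lower in MDSC-NP-Blk (adjusted p = 0.013) and in CITED (adjusted p = 0.0015) than in MDSC, and against the floor of 3 counts per library it was at least 5.53-fold lower in CITED. The call for the blank particle was lost without MDSC replicate 4 (adjusted p = 0.052) or MDSC-NP-Blk replicates 1 and 4 (adjusted p = 0.13). Cbs had 0 to 17 counts in a library, and a difference was not detectable at this depth.

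**Figure D2:**
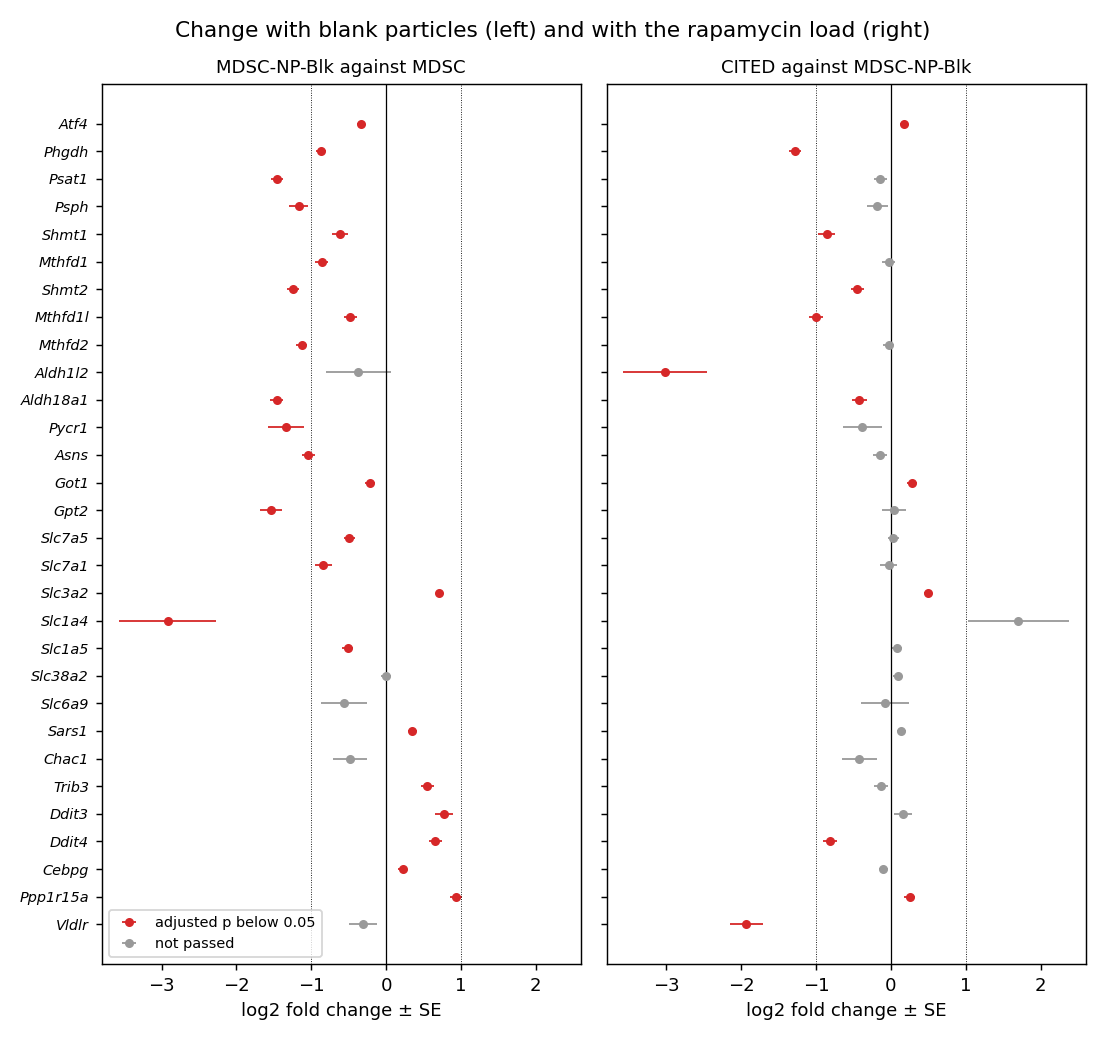
Log2 fold change with its SE (x axis) for MDSC-NP-Blk against MDSC (left) and CITED against MDSC-NP-Blk (right), for the members (y axis) other than Cth, Cbs, and Fgf21, which were at or near 0 counts in some or all libraries. Red points passed the test, dotted lines mark a change of 1 in either direction, and the points of Psat1, Psph, Mthfd2, Asns, and Gpt2 lie beyond -1 on the left and near 0 on the right, whereas those of Phgdh and Mthfd1l lie farther from 0 on the right.

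The transporters moved in different directions. Slc3a2 (chr19:8684245-8701108, minus strand), the heavy chain that pairs with Slc7a5 and several other light chains, had 4239, 4377, 4293, and 4356 normalized counts in the MDSC libraries, 7032, 7199, 7166, and 6771 in MDSC-NP-Blk, and 10017, 10171, 9906, and 9551 in the CITED libraries. It rose at both steps without overlap, by 0.71 ± 0.05 (adjusted p = 8.5e-15) and 0.49 ± 0.05 (adjusted p = 1.4e-10), to 230% of the MDSC mean. Slc7a5, the light chain that carries large neutral amino acids and with Slc3a2 feeds leucine to mTORC1, went the other way. Its normalized counts were 2521, 2592, 2345, and 2481 for MDSC, 1573, 2099, 1861, and 1521 for MDSC-NP-Blk, and 1723, 1827, 1836, and 1824 for CITED. The change was -0.49 ± 0.07 (adjusted p = 7.2e-07) for the blank particle and 0.03 ± 0.07 (adjusted p = 0.87) for the load, or 0.22 without MDSC-NP-Blk replicates 2 and 3 (adjusted p = 0.01).

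Of the other transporters, Slc7a1, the carrier of arginine and lysine, fell from 1052 ± 72.8 normalized counts (SD, n = 4) in MDSC to 584 ± 170.0 with the blank particle and was 576 ± 17.8 in CITED. Slc1a5, a glutamine carrier, fell from 1478 ± 56.1 to 1035 ± 97.9 and was 1097 ± 92.3 in CITED. Between the particle groups neither passed the test, at -0.03 ± 0.11 (adjusted p = 0.94) and 0.08 ± 0.07 (adjusted p = 0.49), but Slc7a1 gave -0.29 without MDSC-NP-Blk replicates 1 and 4 (adjusted p = 0.018) and 0.32 without replicates 2 and 3 (adjusted p = 0.011). Slc1a4 (chr11:20252180-20282774, minus strand), a carrier of alanine, serine, and cysteine, had 34.6, 14.3, 31.3, and 30.2 in the MDSC libraries, 0, 5.5, 2.1, and 5.8 in MDSC-NP-Blk, and 15, 12.2, 2.2, and 17.4 in the CITED libraries. It was lower in MDSC-NP-Blk than in MDSC (-2.92 ± 0.65, adjusted p = 0.00039) with no overlap. The CITED libraries overlapped both other groups. Their difference from MDSC (-1.23 ± 0.58, adjusted p = 0.089) passed with total counts only (-1.50, adjusted p = 0.032) and with the 8 libraries alone (-1.23, adjusted p = 0.038), and their difference from MDSC-NP-Blk (1.70 ± 0.68, adjusted p = 0.071) passed in DESeq2 (1.74, adjusted p = 0.039) and without CITED replicate 3 (2.04, adjusted p = 0.023). Slc38a2, a carrier of small neutral amino acids, had means of 5673, 5685, and 6056 in MDSC, MDSC-NP-Blk, and CITED, and Slc6a9, a glycine carrier, had 55.4, 37.7, and 35.4. Neither passed the test with all libraries, and both depended on the setting: Slc6a9 passed with total counts only against MDSC, at -0.82 for MDSC-NP-Blk (adjusted p = 0.028) and -0.91 for CITED (adjusted p = 0.014), and for CITED also without CITED replicate 3 (-0.85, adjusted p = 0.038). Slc38a2 in CITED against MDSC was 0.09 ± 0.06 (adjusted p = 0.25), or -0.18 with total counts only (adjusted p = 0.021) and 0.21 with the length correction (adjusted p = 0.0013). In MDSC-NP-Blk against MDSC, Slc38a2 was 0.17 without MDSC-NP-Blk replicates 1 and 4 (adjusted p = 0.0046) and -0.20 without replicates 2 and 3 (adjusted p = 0.0012). In CITED against MDSC-NP-Blk, Slc38a2 was -0.08 without replicates 1 and 4 (adjusted p = 0.31) and 0.28 without replicates 2 and 3 (adjusted p = 3.4e-05). It was 0.17 without MDSC-NP-Blk replicate 3 alone (adjusted p = 0.03).

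Sars1, which charges tRNA with serine, was higher in both particle groups. Its normalized counts were 2596, 2453, 2504, and 2476 for MDSC, 3287, 2923, 2979, and 3630 for MDSC-NP-Blk, and 3450, 3516, 3584, and 3592 for CITED. The change was 0.35 ± 0.06 (adjusted p = 5.6e-06) for the blank particle, a call that was lost with total counts only (0.09). For the load it was 0.14 ± 0.06 (adjusted p = 0.076), which passed with the replicate block (0.15, adjusted p = 0.045) and with the length correction (0.16, adjusted p = 0.028). The load also passed without MDSC-NP-Blk replicate 4 (0.21, adjusted p = 0.0054) and without replicates 1 and 4 (0.26, adjusted p = 0.00022). Without replicates 2 and 3 it was 0.03 (adjusted p = 0.8). Sars1 thus rose while the 3 enzymes of serine synthesis fell.

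Of the stress regulators, Ppp1r15a, Ddit3, Ddit4, Trib3, and Cebpg rose with the blank particle, and Chac1 did not pass. Ppp1r15a (chr7:45172340-45175692, minus strand), which encodes GADD34, the phosphatase subunit that reverses eIF2 phosphorylation, had 474, 490, 425, and 475 normalized counts in the MDSC libraries, 977, 894, 836, and 850 in MDSC-NP-Blk, and 978, 971, 1145, and 1125 in the CITED libraries. It rose by 0.93 ± 0.08 (adjusted p = 1.1e-11) with the blank particle and by 0.25 ± 0.08 (adjusted p = 0.018) with the load, and the latter call was lost without MDSC-NP-Blk replicate 3 (0.22, adjusted p = 0.053), CITED replicate 3 (0.21, adjusted p = 0.078), CITED replicate 4 (0.22, adjusted p = 0.077), or MDSC-NP-Blk replicates 2 and 3 (0.21, adjusted p = 0.11). Ddit3, which encodes the pro-apoptotic factor CHOP, had 290, 305, 269, and 280 for MDSC, 569, 461, 326, and 605 for MDSC-NP-Blk, and 577, 499, 525, and 586 for CITED. All 8 particle libraries lay above MDSC, and the change was 0.77 ± 0.12 (adjusted p = 3.1e-06) for the blank particle and 0.16 ± 0.12 (adjusted p = 0.37) for the load, or 0.46 without MDSC-NP-Blk replicates 1 and 4 (adjusted p = 0.0014).

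Ddit4 (chr10:59785491-59788492, minus strand), which encodes the mTORC1 inhibitor REDD1, rose and then returned. It had 1858, 1734, 1830, and 1640 normalized counts in the MDSC libraries, 3005, 2370, 2261, and 3554 in MDSC-NP-Blk, and 1432, 1461, 1772, and 1697 in the CITED libraries. All MDSC-NP-Blk libraries lay above those of both other groups, which overlapped. The change was 0.66 ± 0.09 (adjusted p = 3e-07) for the blank particle and -0.81 ± 0.09 (adjusted p = 1.8e-08) for the load, and CITED differed from MDSC by -0.15 ± 0.09 (adjusted p = 0.21), which passed with total counts only (-0.42), the 8 libraries alone (-0.16), the replicate block (-0.16), and the length correction (-0.33).

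The remaining stress regulators moved less. Trib3, a pseudokinase that restrains ATF4 and CHOP, had means of 375 ± 26.4 normalized counts (SD, n = 4) for MDSC, 550 ± 61.2 for MDSC-NP-Blk, and 501 ± 19.0 for CITED, with 0.55 ± 0.09 (adjusted p = 5.4e-06) for the blank particle, 0.42 ± 0.09 (adjusted p = 0.00021) for CITED against MDSC, which was lost with total counts only (0.15), and -0.13 ± 0.09 (adjusted p = 0.35) for the load. Cebpg, a C/EBP partner of ATF4, had 1287 ± 71.6, 1497 ± 63.6, and 1395 ± 92.7, and its rise with the blank particle (0.22 ± 0.07, adjusted p = 0.0072) turned to -0.04 with total counts only. Chac1, which degrades glutathione, had 93.8 ± 23.5, 67.3 ± 8.14, and 50.6 ± 11.8, was lower in CITED than in MDSC (-0.90 ± 0.23, adjusted p = 0.0016), and did not pass in either single step, although MDSC-NP-Blk against MDSC (-0.48 ± 0.23, adjusted p = 0.095) passed with total counts only (-0.74, adjusted p = 0.0069), with the length correction (-0.64, adjusted p = 0.021), and without MDSC replicate 2 (-0.65, adjusted p = 0.021). Vldlr (chr19:27193862-27231631, plus strand), a receptor that takes up lipoproteins, had 159, 126, 132, and 152 in the MDSC libraries, 121, 86.2, 114, and 140 in MDSC-NP-Blk, and 31.4, 25.7, 20, and 41.6 in the CITED libraries. Its first 2 groups overlapped (-0.31 ± 0.19, adjusted p = 0.21; -0.57 and adjusted p = 0.013 with total counts only), and CITED lay under both, at -1.93 ± 0.22 against MDSC-NP-Blk (adjusted p = 2.2e-08).

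Levels of different genes were compared after division by the length of the GENCODE canonical transcript, as TPM. In MDSC the highest member was Atf4 (196 ± 7.49 TPM, SD, n = 4), followed by Slc3a2 (162 ± 4.21), Phgdh (126 ± 1.08), Slc38a2 (116 ± 0.976), and Ddit4 (96 ± 6.13), and the libraries of neighbors in this order did not overlap down to Mthfd2 (68.3 ± 2.79), which overlapped Slc7a5, as did Slc7a5 and Sars1, and Sars1 and Psat1. In CITED the order was Slc3a2 (286 ± 9.67), Atf4 (135 ± 4.32), Slc38a2 (95.4 ± 4.91), Sars1 (71.5 ± 3.07), and Ddit4 (66.7 ± 8.2), of which Sars1 and Ddit4 overlapped. Phgdh was at 52.7 ± 6.71 TPM in MDSC-NP-Blk and at 21.8 ± 2.47 TPM in CITED, where it ranked 12 of 33. The lowest members above 0 in each group were Cbs, Slc1a4, Aldh1l2, and Cth, at or under 0.998 TPM.

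Ratios of counts within a library do not depend on how libraries are scaled, but they can carry the length trend where the transcripts differ in length. Asns has 4901 bases, against 1741 for Atf4 and 979 for Ddit3. Slc3a2 has 2555 against 3517 for Slc7a5, and Phgdh has 1893 against 2620 for Psat1. The part of the trend in the ratios was not tested. The 4 ratios were computed after the values of the genes had been seen, so they are given without a test. The ratio of Slc3a2 to Slc7a5 was 1.68, 1.69, 1.83, and 1.76 for MDSC, 4.47, 3.43, 3.85, and 4.45 for MDSC-NP-Blk, and 5.81, 5.57, 5.39, and 5.24 for CITED. These groups did not overlap, so the heavy chain gained on this light chain at each step. The ratio of Asns to Atf4 fell from 0.225 ± 0.0142 (SD, n = 4) without particles to 0.139 ± 0.0143 with the blank particle and 0.11 ± 0.0056 with rapamycin, also without overlap. The ratio of Ddit3 to Asns was 0.359 ± 0.0335 in the MDSC libraries, 1.26 ± 0.334 in MDSC-NP-Blk, and 1.56 ± 0.0704 in the CITED libraries, and the particle groups overlapped. The ratio of Phgdh to Psat1 was 1.42 ± 0.085 for MDSC, 2.14 ± 0.0891 for MDSC-NP-Blk, and 0.973 ± 0.139 for CITED, so it was highest with the blank particle and lowest with the rapamycin load.

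**Figure D3:**
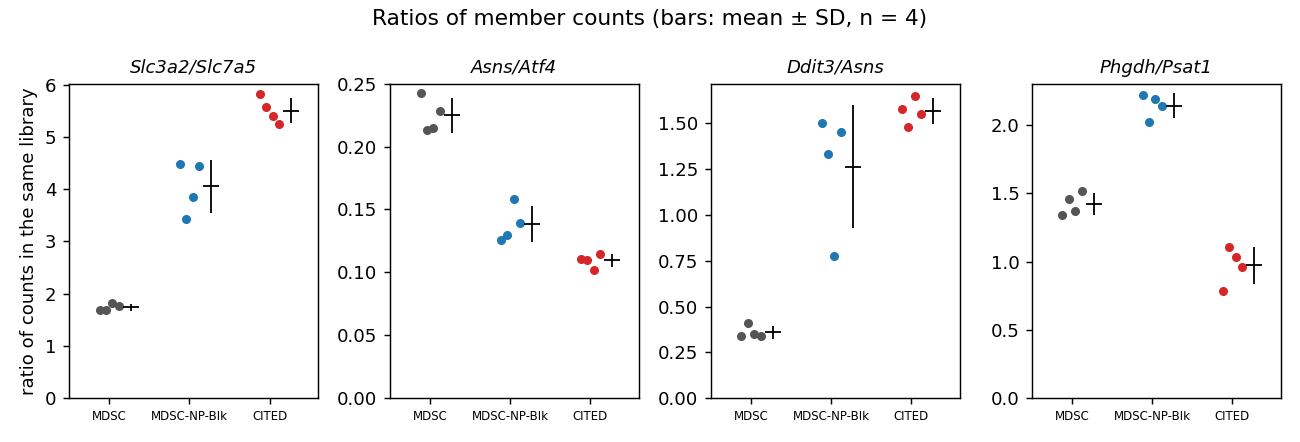
Ratio of the counts of 2 members in the same library (y axis, starting at 0), with 1 point per library for MDSC, MDSC-NP-Blk, and CITED, and a cross and bar for the mean ± SD of 4 libraries. Slc3a2 over Slc7a5 rises from 1.74 to 4.05 and 5.5, Asns over Atf4 falls from 0.225 to 0.139 and 0.11, and Phgdh over Psat1 is highest in MDSC-NP-Blk.

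Of the 29 members above 0 counts in every library, 22 had MDSC-NP-Blk replicates 1 and 4 on one side and replicates 2 and 3 on the other. This split was chosen after seeing the data, and the share of all genes that it separates was not computed. Whether it is particular to the members was therefore not tested. Replicates 1 and 4 were the higher pair for 9, which were Atf4, Mthfd1l, Aldh1l2, Pycr1, Sars1, Trib3, Ddit3, Ddit4, and Vldlr. They were the lower pair for 13, which held Phgdh, Psat1, Shmt1, Shmt2, Mthfd1, Mthfd2, Aldh18a1, and Gpt2 among the enzymes and Slc7a5, Slc7a1, Slc3a2, Slc1a5, and Slc38a2 among the transporters. For Slc38a2, replicates 1 and 4 had 4920 and 5031 normalized counts and replicates 2 and 3 had 6188 and 6603, around an MDSC mean of 5673. For Slc7a1 the same pairs had 445 and 475 against 597 and 819. Without replicates 1 and 4, 19 members were lower and 8 were higher in MDSC-NP-Blk than in MDSC, and without replicates 2 and 3 the counts were 19 and 7. In CITED against MDSC-NP-Blk the counts were 10 lower and 6 higher without replicates 1 and 4, and 7 and 5 without replicates 2 and 3. The share of all genes called in these refits was not computed, so the counts cannot be set against it. The length trend divided the same way, with rho of -0.42 and -0.24 in replicates 1 and 4 and -0.046 and 0.092 in replicates 2 and 3, and its part in the division was not tested. The labels give no batch for these pairs.

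Genes next to the program were described by 10 further lists, whose counts stand against 19.9% of all genes higher and 18.6% lower in MDSC-NP-Blk than in MDSC, and 10.5% higher and 11.4% lower in CITED than in MDSC-NP-Blk. The kinases that phosphorylate eIF2 and the factors they act on showed 3 of 13 genes higher and 6 lower in MDSC-NP-Blk than in MDSC. Eif2ak1, the heme-regulated kinase, rose by 0.37 ± 0.06 (adjusted p = 2.1e-06), and Eif2ak4, which encodes the amino acid sensor GCN2, fell from 694 to 419 normalized counts (-0.73 ± 0.08, adjusted p = 8.1e-09). In CITED against MDSC-NP-Blk, 2 were higher and 0 lower, of which Impact, an inhibitor of GCN2, rose by 0.58 ± 0.10 (adjusted p = 3.5e-05).

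Other ATF4 targets, a list that also holds the transporters Slc7a11 and Slc7a3 and the enzymes Pck2 and Bcat1, divided, with 9 of 18 higher and 6 lower with the blank particle, and 4 higher and 5 lower with the load. Cebpb, a C/EBP factor of myeloid differentiation, rose from a mean of 6728 normalized counts to 13540 with the blank particle (1.01 ± 0.05, adjusted p = 2.7e-17) and to 19120 in CITED (0.50 ± 0.05, adjusted p = 1.7e-09). Atf5, a relative of ATF4, rose from 798 to 1350 and 2732, by 0.76 ± 0.07 (adjusted p = 4e-11) and 1.02 ± 0.07 (adjusted p = 5.2e-14). Ero1a, an oxidase of protein folding that also responds to hypoxia, fell by 1.12 ± 0.06 on the log2 scale with the load (adjusted p = 1e-15), and Xpot, the exporter of tRNA, fell by 0.82 ± 0.07 with the blank particle (adjusted p = 3e-11).

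The tRNA synthetases outside the members went against Sars1. Of 19 cytosolic synthetases, 18 were lower with the blank particle and 1, Qars1, was higher (0.29 ± 0.05, adjusted p = 3e-05). The lowest p among them was that of Iars1, for isoleucine, which fell from 1579 to 626 normalized counts (-1.33 ± 0.09, adjusted p = 1.1e-14). With the load, 2 of the 19 were higher, Wars1 and Aars1, and 2 were lower, which is 10.5% each way and near the share of all genes. Of 17 mitochondrial synthetases, 12 were lower and 2 were higher with the blank particle, and 2 were lower (11.8%, near the share of all genes) and 0 higher with the load.

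Targets of the other branches of the endoplasmic reticulum stress response were also mostly lower with the blank particle, with 12 of 15 lower and 2 higher. Hspa5, the chaperone BiP, fell from 16221 to 9051 normalized counts (-0.84 ± 0.05, adjusted p = 3e-15), and Sdf2l1, a chaperone partner, fell by 1.48 ± 0.09 on the log2 scale (adjusted p = 5.3e-16), whereas Xbp1, the factor downstream of IRE1, rose by 0.52 ± 0.04 (adjusted p = 2.3e-12). With the load, 3 were higher and 1 was lower. Thus Ddit3 and Ppp1r15a rose with the blank particle while Hspa5 fell.

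Lists of one-carbon and methionine metabolism were counted in the same way. Of 12 purine and thymidylate genes, 10 were lower and 0 higher with the blank particle, and 7 were lower and 2 higher with the load. Pfas, a purine enzyme, fell from 624 to 325 normalized counts with the blank particle (-0.94 ± 0.09, adjusted p = 1.6e-10), and Impdh2, of guanine nucleotide synthesis, fell from 1713 to 1220 with the load (-0.49 ± 0.06, adjusted p = 1.8e-07). Of 7 methionine cycle genes, 5 were lower and 1 was higher, then 2 and 0, and the 2 that fell at each step by the lowest p were Ahcy and Mtr. Of 12 tested genes of glycine cleavage and other folate steps, 6 were lower and 1 was higher with the blank particle, then 0 and 2, and Gcsh, a carrier protein of glycine cleavage, had means of 359, 238, and 375 in the 3 groups. Of 14 other amino acid transporters, 7 were lower and 3 higher (21.4%, near the share of all genes), then 0 and 3, and Slc15a3, a lysosomal carrier of peptides and histidine, rose from 2572 to 3273 and 5088.

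**Figure D4:**
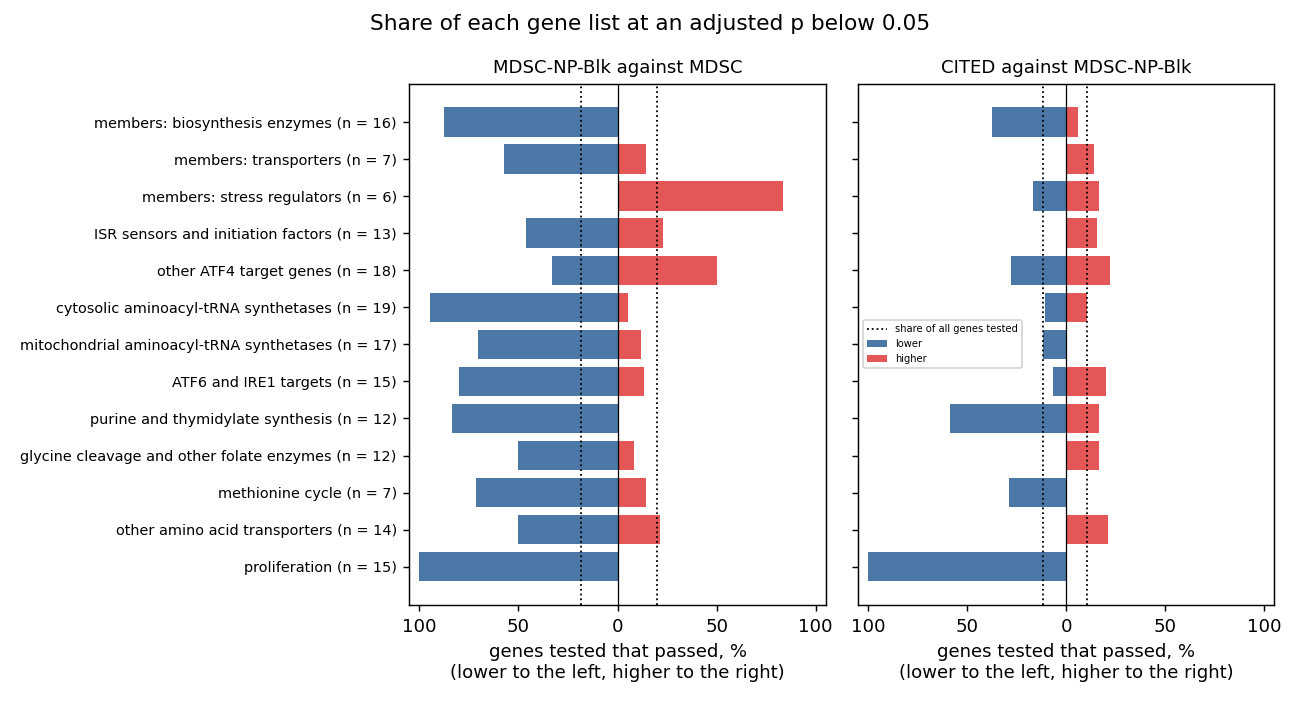
Percent of the tested genes of each list that passed the test as lower (blue, to the left) or higher (red, to the right) for MDSC-NP-Blk against MDSC (left panel) and CITED against MDSC-NP-Blk (right panel), with the share of all genes tested as dotted lines. Biosynthesis enzymes reach 87.5% lower on the left and 37.5% on the right, stress regulators reach 83.3% higher on the left, and the 15 proliferation genes reach 100% lower in both.

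Proliferation genes were also lower in both particle groups, but their median step was larger with the load than with the blank particle. The 16 enzymes had the larger median step with the blank particle (-1.08, against -0.38 with the load). All 15 proliferation genes were lower in each comparison, with median log2 fold changes of -0.78 for MDSC-NP-Blk against MDSC, -1.02 for CITED against MDSC-NP-Blk, and -1.68 for CITED against MDSC. For example, Rrm2, a subunit of the enzyme that makes deoxynucleotides, had means of 3611, 1778, and 774 normalized counts. The 4 progenitor markers Kit, Cd34, Mpo, and Elane summed to 2230 to 2578 TPM without particles, 1020 to 1152 with blank ones, and 166 to 177 with rapamycin, and 5 mast cell and basophil markers summed to 383 to 412, 330 to 374, and 205 to 218. The progenitor sum was carried by the granule genes Mpo and Elane, whereas Kit was at 20.7 to 27.2 TPM in MDSC, 22.1 to 28.2 in the blank-particle group, and 14.4 to 17.9 in CITED, and Cd34 was at 8.07 to 8.67, 5.56 to 6.48, and 5.01 to 7.69. The part of cell division, cell makeup, and the length trend in the fall of the biosynthesis enzymes was not tested.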

How the data were processed

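Poly(A) RNA of 12 libraries was sequenced. The authors quantified paired-end reads with Salmon 1.4.0 against GENCODE transcripts of GRCm39 and summed them per gene with tximport (R 4.3.2), and the deposited values are raw whole-number counts per gene symbol, neither normalized nor filtered. Groups and replicate numbers were read from the sample titles. The members and the lists were chosen with earlier results of these data known.

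In R 4.3.3, symbols with at least 2 counts in total (17676) were fitted with edgeR 4.0.16 (TMM, glmQLFit and glmQLFTest, group as the only term, 12 libraries, robust off), with Benjamini-Hochberg adjustment over all of them. A gene passed at an adjusted p below 0.05, and a change of 1 on the log2 scale was the second threshold. The common biological coefficient of variation was 9.03%. Values for every library are given for Atf4, for members past both thresholds in any comparison, and for members that passed in opposite directions in the 2 steps. Values for every library of Slc7a5, Sars1, Ddit3, Slc38a2, and Slc7a1 were added after they had been seen. From each other list, the 2 genes with the lowest p in each direction and step were eligible, and the text names a part, since some are not reported here. Fold changes carry the SE of the fit.

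TPM values divide counts by the GENCODE M39 canonical transcript length. Alternatives were other scalings, DESeq2 1.42.0, other filters, 8 libraries alone, a replicate block, a length correction (loess, span 0.5), and leaving out each library. Leaving out 2 MDSC-NP-Blk libraries at a time was chosen after seeing the data. Same-numbered libraries were not paired in the main fit (deviation correlations -0.056 to 0.14), and these low correlations do not show that their preparations were separate. Of the steps, only the edgeR fit was tested on simulated counts. Figures were drawn with matplotlib 3.10.9 in Python 3.11.15. Protein levels and ATF4 binding were not analysed here.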

Additional observations from a re-analysis of the deposited data

Results flagged for a closer look

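In 8 of 96 groups checked, which are 32 members in 3 groups each, 1 library lay apart from the other 3 by a Dixon gap test, and chance flags about 1 in 20 groups. Mthfd2 had 701 normalized counts in CITED replicate 2, against 657 to 665 in the other CITED libraries, a gap of 0.83 of the range. Gpt2 had 114 in MDSC-NP-Blk replicate 3, against 80.7 to 86.2. Cth had 9.4 in MDSC-NP-Blk replicate 3, against 0 in the other 3. Cbs had 15.7 in MDSC replicate 3, against 2 to 2.9. Slc7a5 had 1723 in CITED replicate 1, against 1824 to 1836, and Cebpg had 1258 in CITED replicate 3, against 1423 to 1455. In MDSC replicate 2, Slc7a1 had 943, against 1083 to 1096, and Chac1 had 59, against 101 to 109.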

How the results depend on the processing

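Over the alternatives, 1956 of 2045 fold changes of the 32 members tested kept their direction and their side of the threshold, 16 lost the call, 29 gained it, and 44 changed sign, and 251 of 256 counts of members stayed within 1.5 times. The count of members that rose by at least 1 in CITED against MDSC went from 2 to 0 with total counts only. That count went from 0 to 1 in MDSC-NP-Blk against MDSC without replicates 2 and 3 of MDSC-NP-Blk, and from 0 to 1 in CITED against MDSC-NP-Blk with DESeq2. When 1 library was left out, the same count ranged from 0 to 1 in CITED against MDSC-NP-Blk (1 without CITED replicate 3), and the count of members higher there, 4 in all, ranged from 2 (without CITED replicate 4) to 5. Members lower ranged from 19 to 21 in CITED against MDSC, from 18 to 19 in MDSC-NP-Blk against MDSC, and stayed at 8 in CITED against MDSC-NP-Blk. The share of all genes was not computed with libraries left out. The causes of these changes were not tested.

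Of the 44 changes of sign, 1 was of a difference that had passed the test: Cebpg in MDSC-NP-Blk against MDSC became -0.04 with total counts only. With total counts only, Cebpg (-0.16), Slc38a2 (-0.18), and Got1 (-0.21) also turned in CITED against MDSC, and Slc38a2 became -0.26 in MDSC-NP-Blk against MDSC. With the length correction, Got1 became -0.06 in CITED against MDSC and Slc7a1 became 0.07 in CITED against MDSC-NP-Blk. Slc38a2 in MDSC-NP-Blk against MDSC, which was 0.00, became -0.01 with relative log expression factors, DESeq2, and the 8 libraries alone, and 0 on the other side with the replicate block.

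Without MDSC-NP-Blk replicates 2 and 3, the differences of CITED from MDSC-NP-Blk became 0.03 for Psat1, 0.08 for Mthfd2, 0.07 for Mthfd1, 0.29 for Cbs, 0.32 for Slc7a1, -0.1 for Ddit3, and 2.93 for Cth, and those of MDSC-NP-Blk from MDSC became 0.37 for Aldh1l2 and -0.2 for Slc38a2. Without replicates 1 and 4, CITED against MDSC-NP-Blk gave -0.08 for Gpt2, -0.14 for Slc7a5, -0.01 for Slc1a5, -0.08 for Slc38a2, 0.1 for Slc6a9, and 0 for Trib3. With single libraries left out, CITED against MDSC-NP-Blk ranged from -0.07 to 0.03 for Mthfd2, -0.01 to 0.16 for Gpt2, -2.29 to 2.99 for Cth, -0.08 to 0.01 for Mthfd1, -1.01 to 0.04 for Cbs, -0.03 to 0.13 for Slc7a5, -0.13 to 0.18 for Slc7a1, and -0.3 to 0.12 for Slc6a9, and MDSC-NP-Blk against MDSC ranged from -1.36 to 0.26 for Cbs and -0.08 to 0.07 for Slc38a2. The fitted values of Cth and Cbs are no bounds.

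Whether libraries with the same replicate number share a marrow preparation is not stated. With the replicate block, the counts of members higher and lower were 5 and 21 in CITED against MDSC, where Ddit4 gained the call, 7 and 19 in MDSC-NP-Blk against MDSC, and 5 and 8 in CITED against MDSC-NP-Blk, where Sars1 gained the call. The share of all genes with the block was not computed. Depth limits Cth, Cbs, Slc1a4, and Aldh1l2, each with libraries under 10 counts.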
